A study of Mus musculus with 12 samples.

Results

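The genes described here are 45 genes of the lysosome, chosen by name: proteases, glycan and lipid hydrolases, lysosomal membrane proteins, and the transcription factors Tfeb and Tfe3. All 45 were found by symbol, with 1 row each, among the 55421 genes of both deposited tables. RNA was sequenced from B16F10 cells, a pigmented mouse melanoma line, in 4 groups of 3 libraries. The groups were Bub1KO cells given 8 Gy of radiation, vector control (VC) cells given 8 Gy, Bub1KO cells left untreated, and VC cells left untreated. Bub1 encodes a mitotic checkpoint kinase, and the series set out to ask how its loss, made with CRISPR-Cas9, bears on the response to radiation. No source used here gives the time after irradiation, the guide or the number of Bub1KO clones, so a difference between the genotypes cannot be told apart from a difference between clones. The labels do not tell whether replicate libraries were grown as separate cultures, and p-values measure the spread between these libraries, which may be technical.

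Lysosomes are acidic compartments in which hydrolases break down proteins, glycans and lipids delivered by endocytosis and autophagy. Most of the soluble hydrolases reach the lysosome through the mannose 6-phosphate receptors, a proton pump keeps the interior acidic, and heavily glycosylated proteins such as Lamp1 line the membrane. Tfeb, Tfe3 and the melanocyte factor Mitf belong to one family of basic helix-loop-helix factors that bind E-box motifs in promoters of lysosomal genes, and pigment cells build melanosomes, which are organelles related to lysosomes.

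The libraries held 19380726 to 33087366 reads in genes. Values are read counts divided by 1 size factor per library, called normalised counts below. Bub1 itself averaged 998 ± 117 in irradiated Bub1KO and 1484 ± 22.8 in irradiated VC libraries (SD, n = 3 each). Without irradiation it averaged 1662 ± 149 in Bub1KO and 2932 ± 226 in VC libraries, so Bub1 RNA was lower in Bub1KO but still present. The 7 melanocyte and melanoma markers (Mitf, Sox10, Tyr, Tyrp1, Dct, Pmel and Mlana) summed to 555547 to 578932 in irradiated Bub1KO libraries, against 430616 to 445913 in irradiated VC libraries. Their sums were 542890 to 552089 in untreated Bub1KO and 386910 to 404327 in untreated VC libraries, and Dct and Pmel gave most of the difference between the genotypes. In Bub1KO over VC 4 of the 7 (Tyr, Dct, Pmel and Mlana) were higher after irradiation and 2 without it, with 0 lower. Of all genes tested 14.3% were higher and 16.4% lower between the irradiated genotypes, and 2.31% and 1.71% between the untreated ones. Mitf, Sox10 and Tyrp1, which did not pass after irradiation, averaged 11720, 8392 and 97145 normalised counts in irradiated Bub1KO, against 12637, 10012 and 104998 in irradiated VC libraries. Replicate 1 of the untreated Bub1KO group stood apart from its group: its counts differed from those of the other replicates by a chi-square of 49.1 and 51.8 per gene, whereas the other pairs within a group had 5.51 to 17.7. In that library the gap between GC-rich and GC-poor genes, relative to the mean of all libraries, was -0.74 on the log2 scale, against 0.03 and 0.07 in its replicates. The gap was 0.09 to 0.29 in irradiated Bub1KO, 0.17 to 0.35 in irradiated VC and -0.38 to -0.14 in untreated VC libraries, so it also moved with irradiation. Where leaving that library out changed a call or moved a called value by over 1.5 times, the value without it is given. For the irradiation effects and the difference between them it stands beside the result. For the untreated genotypes most such values stand together in a later paragraph.

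The promoters of these genes were read for the motifs of that factor family. RefSeq (GRCm38.p6) gave a promoter, from 250 bases before to 50 bases after the start, for 41 of the 45 genes. The E-box CACGTG, searched on both strands, was present in 14 of the 41 (34.1%), against 8.1% of 27025 genes. Those 27025 are all genes with a promoter there, whether expressed in these cells or not. The longer half-site GTCACGTG of the lysosomal CLEAR element, which contains the E-box, was present in 11 of the 41 (26.8%), against 2.5% of all genes. The letters TCATGTG, a core of the M-box through which Mitf acts on pigment genes, were found in 7 of the 41 (17.1%), against 4.3% of all genes. A match describes these letters in this window and is not a measured binding site. The 4 promoters below are shown with E-boxes in capitals, and with the 2 further bases in capitals where they complete the CLEAR half-site. Cd68 and Ctsd had among the largest genotype differences after irradiation. Ctso and Ctsz, which differed at least as much as Ctsd and held none of the motifs, are not shown. Mcoln1 and Lamp1 were picked after their motifs were seen.
Cd68, minus strand of chr11:69666121-69666420: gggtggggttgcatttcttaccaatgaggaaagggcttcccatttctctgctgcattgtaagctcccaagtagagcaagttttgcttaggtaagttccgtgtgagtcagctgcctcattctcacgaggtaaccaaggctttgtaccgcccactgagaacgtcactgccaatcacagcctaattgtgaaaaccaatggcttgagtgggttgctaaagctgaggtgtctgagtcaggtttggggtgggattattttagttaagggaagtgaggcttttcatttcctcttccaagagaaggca
Ctsd, minus strand of chr7:142387778-142388077: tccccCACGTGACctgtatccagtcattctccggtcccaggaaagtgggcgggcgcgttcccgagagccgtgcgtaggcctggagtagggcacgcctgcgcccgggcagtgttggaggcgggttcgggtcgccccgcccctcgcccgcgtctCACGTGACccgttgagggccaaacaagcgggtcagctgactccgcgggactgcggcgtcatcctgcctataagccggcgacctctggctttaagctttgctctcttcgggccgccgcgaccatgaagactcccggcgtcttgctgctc
Mcoln1, plus strand of chr8:3500269-3500568: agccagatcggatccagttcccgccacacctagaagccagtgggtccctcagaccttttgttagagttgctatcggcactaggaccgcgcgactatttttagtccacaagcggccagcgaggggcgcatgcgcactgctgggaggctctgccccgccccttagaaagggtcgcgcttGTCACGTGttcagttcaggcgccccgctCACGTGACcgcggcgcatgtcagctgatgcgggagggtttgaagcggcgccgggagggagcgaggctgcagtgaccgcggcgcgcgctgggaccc
Lamp1, plus strand of chr8:13158911-13159210: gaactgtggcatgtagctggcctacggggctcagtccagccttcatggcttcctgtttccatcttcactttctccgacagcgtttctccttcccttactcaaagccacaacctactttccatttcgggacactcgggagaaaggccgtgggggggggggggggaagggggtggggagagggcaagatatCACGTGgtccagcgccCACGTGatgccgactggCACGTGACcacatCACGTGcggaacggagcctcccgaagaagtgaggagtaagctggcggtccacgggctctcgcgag
Cd68 held none of the 3 motifs, nor did Ctso, Ctsz, Neu1 or Lipa. Ctsd held 2 CLEAR half-sites, which began 245 and 98 bases before the start. Mcoln1, a lysosomal calcium channel, held 2 within 73 bases of the start, and Lamp1 held 4 E-boxes within 61 bases of it.

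Together the 45 genes took up a larger share of all reads after irradiation in both genotypes, and a larger share in Bub1KO than in VC at both doses. They held 1.21%, 1.23% and 1.16% of the reads in irradiated Bub1KO libraries, against 1.06%, 1.03% and 1.06% in irradiated VC libraries. Without irradiation they held 0.722%, 0.780% and 0.779% in Bub1KO, against 0.672%, 0.651% and 0.681% in VC. No 2 of the 4 groups overlapped. The summed normalised count was 1.49-fold higher in irradiated than in untreated Bub1KO cells and 1.48-fold higher in irradiated than in untreated VC cells. The summed count was 1.15-fold higher in Bub1KO than in VC after irradiation and 1.13-fold higher without it. A few genes made up most of these differences: Ctsd, Cd63, Ctsb, Psap, Ctsz and Ctsa gave 73.6% of the difference between the irradiated genotypes, and held 43.5% of the sum in irradiated Bub1KO. Ctsb, Ctsd, Psap, Ctsl, Laptm4a and Grn gave 53.6% of the rise in VC, and held 38.1% of the sum in irradiated VC. These are libraries of whole cell populations, so fewer cells of a kind and less RNA per cell cannot be told apart.

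**Figure D1:**
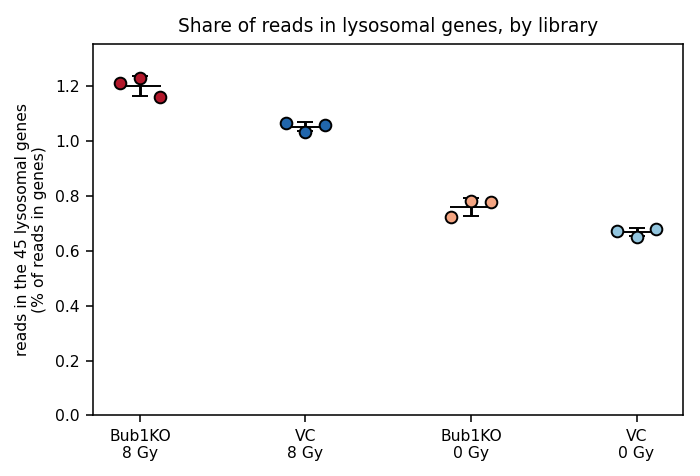
Share of reads in genes (%, vertical axis) that fell in the 45 lysosomal genes, for each of the 12 libraries by group, with the group mean and SD. The irradiated Bub1KO libraries lie highest, at 1.16% to 1.23%, and the untreated VC libraries lowest, at 0.651% to 0.681%.

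Levels were compared between genes per kilobase of exon. In irradiated Bub1KO libraries Lamp1, the main glycoprotein of the lysosomal membrane, averaged 10562 normalised counts per kb, and the aspartic protease Ctsd averaged 10525. In untreated VC libraries Lamp1 was at 8928 and Ctsd at 4238 per kb, so Ctsd ranked second in irradiated Bub1KO and sixth in untreated VC cells. Ctsz, Psap, Cd63, Laptm4a and Hexa made up the rest of the 7 highest genes in all 4 groups. At the low end stood Lyz2, Ctsh, Ctsf, Ctsk and Ctss. Ctsk, a bone-resorbing cathepsin, averaged 8.56 normalised counts in irradiated Bub1KO and 4.77 in irradiated VC libraries. It averaged 1.30 in untreated Bub1KO and 3.92 in untreated VC libraries. Ctss, the cathepsin of antigen-presenting cells, had 5 reads over all libraries and none in any untreated library, where 3 reads, the most that a count of 0 allows, would be 2.47 to 3.87 normalised counts. Both fell under the filter of 10 normalised counts in at least 3 libraries, which left 43 genes tested among 14721. Cd68 held place 33 in irradiated Bub1KO, place 36 in irradiated VC and place 40 in both untreated groups, and Neu1 held place 20 in irradiated Bub1KO, 22 in irradiated VC, 25 in untreated Bub1KO and 28 in untreated VC cells.

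**Figure D2:**
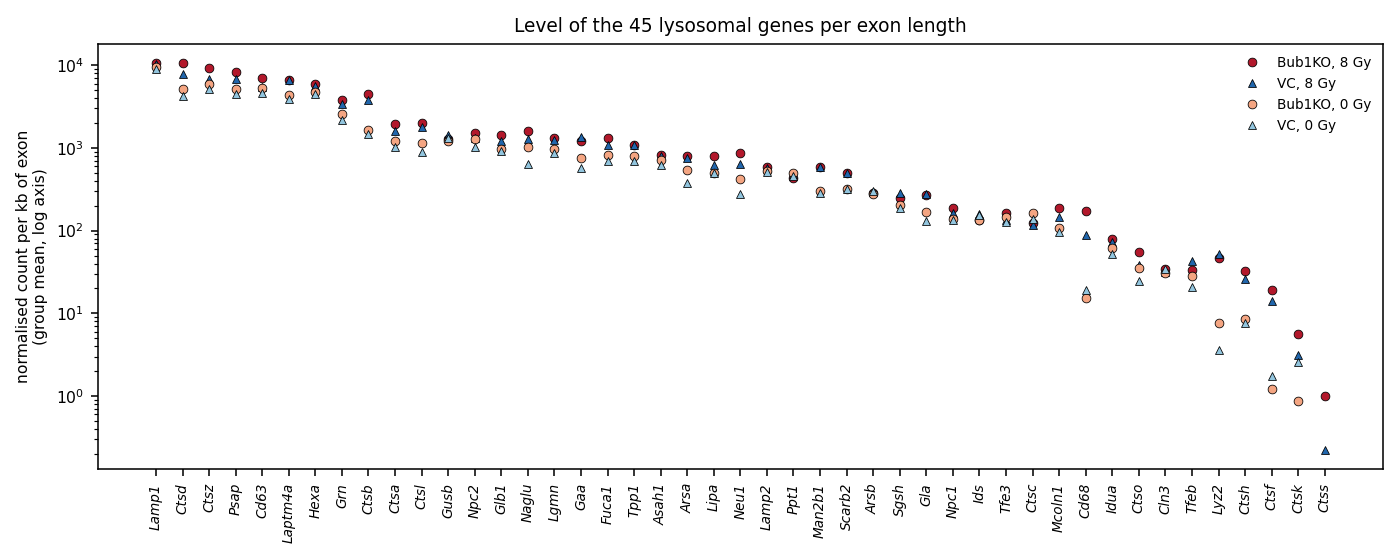
Group mean of normalised counts per kb of exon (log axis) for each of the 45 genes, ordered by the mean over groups. Lamp1 is highest in all 4 groups, at 8928 to 10562, and Ctss, at 0 without irradiation and therefore not drawn there, is lowest.

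Irradiation raised most of these genes in both genotypes. Of the 43 tested, 31 were higher and 1, Ctsc, was lower in irradiated than in untreated Bub1KO cells, while 25.4% of all 14721 genes were higher and 23.9% lower (limma, Benjamini-Hochberg adjusted p under 0.05). In VC cells 35 were higher and 0 lower, while 27.6% of all genes were higher and 25.8% lower. Of the VC changes 1 was downward at an unadjusted p under 0.05, beside 28.4% of all genes. edgeR called 1 gene lower, beside 27.0% of all genes, and DESeq2 called 0, beside 25.5%. The median log2 fold change of the 43 was 0.58 in Bub1KO and 0.60 in VC, beside 0.03 and 0.02 over all genes tested. All 31 genes that rose in Bub1KO rose in VC as well. The 4 that passed in VC without passing in Bub1KO were Asah1, Lamp1, Sgsh and Tfeb, and none of them passed the test of the difference between the genotypes. Without replicate 1 of untreated Bub1KO, Asah1 passed in Bub1KO too (log2 0.27, limma adjusted p = 0.00974), and Sgsh and Tfeb passed the test of the difference. With the trend of change against GC content removed, the medians were 0.44 in Bub1KO and 0.46 in VC, with 31 and 34 genes higher. Of all 14721 genes 3960 were then higher and 4082 lower in Bub1KO, and 4256 and 4138 in VC.

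Loss of Bub1 went with higher levels of many of these genes after irradiation. In irradiated Bub1KO over irradiated VC, 18 of the 43 were higher and 2 lower, while 14.3% of all genes were higher and 16.4% lower. The median of the 43 was 0.12 on the log2 scale, beside -0.01 over all genes. Without irradiation 2 genes, Neu1 and Arsa, were higher in Bub1KO and 0 were lower, while 2.31% of all genes were higher and 1.71% lower. The median was 0.19 there, beside -0.01 over all genes, and 12 genes were higher and 0 lower at an unadjusted p under 0.05, beside 9.71% and 9.43% of all genes. edgeR called 1 gene higher and 0 lower, beside 2.31% and 2.05% of all genes, and DESeq2 called 3 and 0, beside 3.07% and 2.72%. The limma count turned on single libraries. Without replicate 1 of the untreated Bub1KO group 14 genes were higher and 0 lower, while 10.2% of all genes were higher and 8.4% lower. Without any one of the other 5 libraries 0 of these genes were higher, beside 0.774% to 1.25% of all genes. The authors' deposited table gave 14 of the 45 genes as higher and 0 as lower in irradiated Bub1KO, and 9 as higher and 0 as lower in untreated Bub1KO, at an adjusted p under 0.05. Of the 13993 genes with an adjusted p in the authors' deposited table, 8.95% were higher and 9.15% lower in irradiated Bub1KO, and 6.95% and 6.12% in untreated Bub1KO. Both genotype comparisons and both irradiation comparisons draw on the same 12 libraries, so their results are not independent of each other.

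**Figure D3:**
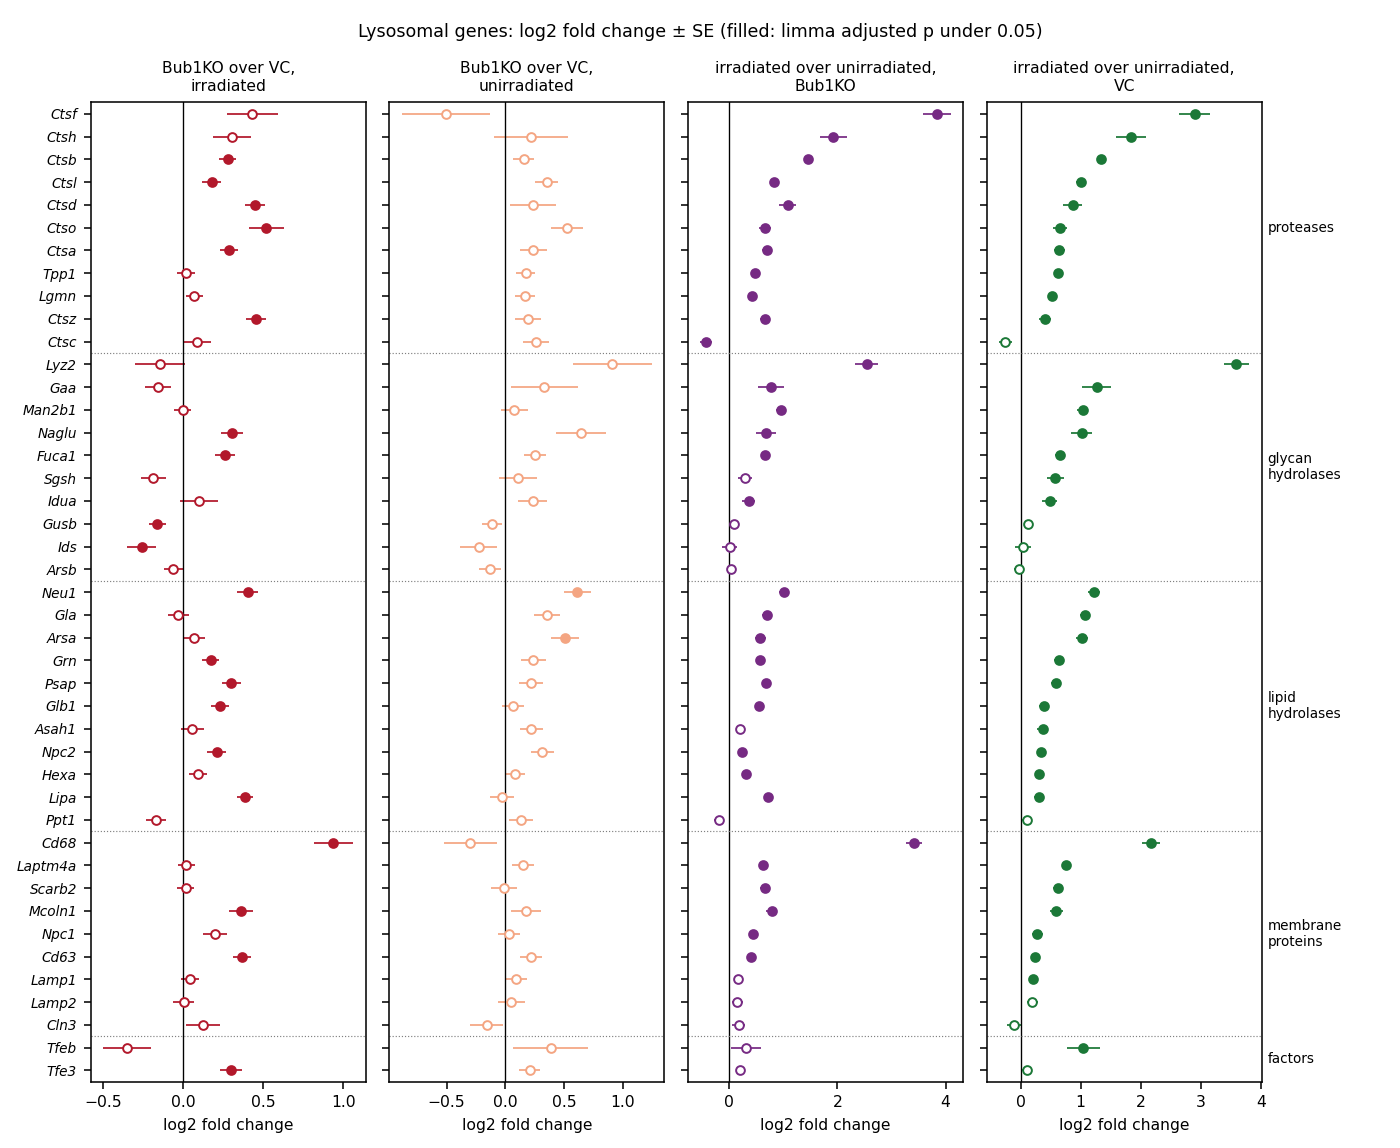
Log2 fold change with its SE for the 43 tested genes, grouped by role and ordered by the change in VC; filled points passed limma's adjusted p under 0.05. The irradiation panels hold 31 and 35 filled points to the right of 0, and the genotype panels hold 18 and 2.

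Most proteases rose after irradiation. Of 11 tested, 10 were higher and 1 lower after irradiation in Bub1KO, and 10 were higher and 0 lower in VC. The irradiated genotypes differed in 6, with 6 higher and 0 lower in Bub1KO, and without irradiation none passed. With replicate 1 of untreated Bub1KO left out, Ctsa, Ctsd, Ctsl, Ctso and Ctsz were higher in untreated Bub1KO, beside 10.2% of all genes. Beside these counts and those of the roles below, 25.4% of all genes were higher after irradiation in Bub1KO and 27.6% in VC. Between the genotypes 14.3% of all genes were higher and 16.4% lower with irradiation, and 2.31% and 1.71% without it. Ctsb, a cysteine protease that also trims dipeptides, gave the most reads to the rise. It had 27330.1, 28380.5 and 26771 normalised counts in irradiated Bub1KO libraries, against 23251, 22188 and 22657 in irradiated VC libraries. In untreated Bub1KO it had 10349, 9602 and 10210.4, against 8860, 8426 and 9790.3 in untreated VC libraries. Every irradiated library lay above every untreated one, and the irradiated genotypes did not overlap, while the untreated genotypes did. The irradiation effect was 2.73-fold in Bub1KO (log2 1.45 ± 0.07 SE, limma adjusted p = 3.75e-09) and 2.52-fold in VC (1.33 ± 0.07, adjusted p = 9.32e-09). The genotype difference after irradiation was 1.21-fold (0.28 ± 0.05, adjusted p = 0.00205). Ctsb shares 774 bases of exon with Fdft1 on the other strand, and no source used here gives the strand setting of the counting.

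Ctsd, the lysosome's main aspartic protease, had 23597, 26307 and 24332 normalised counts in irradiated Bub1KO libraries and 19108, 18040 and 17273 in irradiated VC libraries. Without irradiation it had 8083, 14087 and 14179 in Bub1KO and 10207, 9396 and 10287 in VC libraries. The irradiated genotypes did not overlap, and among untreated Bub1KO libraries the low value was that of the library that stood apart. Irradiated Bub1KO exceeded irradiated VC 1.36-fold (log2 0.45 ± 0.06, limma adjusted p = 0.000179). The untreated difference, 0.24 ± 0.20, missed the threshold (limma adjusted p = 0.564), and passed it without replicate 1 of untreated Bub1KO at 0.51 (adjusted p = 0.00101). With all 12 libraries in 1 fit, the irradiated difference of Ctsd no longer passed (limma adjusted p = 0.079).

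Ctsz, a carboxypeptidase, was at 13959, 14089 and 12199 normalised counts in irradiated Bub1KO libraries, against 10003, 9568 and 9815 in irradiated VC libraries. It was at 7509, 8706 and 9305 in untreated Bub1KO, against 7247, 6745 and 8300 in untreated VC libraries. The genotypes separated after irradiation and overlapped without it. Without replicate 1 of untreated Bub1KO, the low value there, the untreated difference of Ctsz was 0.28 on the log2 scale (limma adjusted p = 0.0478). The irradiated difference was 1.37-fold (log2 0.45 ± 0.06, limma adjusted p = 0.000198). Ctsl, an endopeptidase of the same family, was at 12345, 13063 and 13747 in irradiated Bub1KO, against 11772, 10999 and 11843 in irradiated VC libraries. It was at 8034, 6749 and 7271 in untreated Bub1KO, against 5365, 5781 and 6119.9 in untreated VC libraries. Its genotypes did not overlap at either dose. Ctsl rose 1.78-fold with irradiation in Bub1KO and 2.01-fold in VC (limma adjusted p = 1.62e-06 and 2.99e-07), whereas its 1.13-fold genotype difference after irradiation (adjusted p = 0.0347) did not pass under 9 of the other 16 settings tried.

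Ctsf changed most of all proteases, from a very low level. It had 102, 96.1 and 90.3 normalised counts in irradiated Bub1KO libraries, against 66.1, 61.7 and 88.0 in irradiated VC libraries. In untreated cells it had 9.15, 4.94 and 4.21 in Bub1KO, against 8.29, 7.74 and 10.1 in VC libraries. Irradiated libraries lay far above untreated ones in both genotypes. Ctsf met the filter of 10 normalised counts in at least 3 libraries only through its irradiated libraries, which favoured a rise in advance. The fitted rise was 14.3-fold in Bub1KO (log2 3.84 ± 0.26, limma adjusted p = 7.71e-08) and 7.47-fold in VC (2.90 ± 0.26, adjusted p = 8.69e-07), on a log2(value + 1) scale that understates changes of low genes. The difference between these rises, 0.94 ± 0.36, missed the threshold (limma adjusted p = 0.308) and passed it without replicate 1 of untreated Bub1KO at 1.22 (adjusted p = 0.0234). Ctsh, an aminopeptidase, was likewise low and averaged 147 ± 11.9 in irradiated Bub1KO, 118 ± 4.95 in irradiated VC, 38.3 ± 8.24 in untreated Bub1KO and 34.5 ± 16.1 in untreated VC libraries (SD, n = 3 each). It rose 3.80-fold in Bub1KO and 3.58-fold in VC.

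Among the other proteases Ctso, a little-studied cysteine cathepsin, averaged 283 ± 28.5 in irradiated Bub1KO and 198 ± 17.1 in irradiated VC libraries, a 1.43-fold difference (SD, n = 3 each; limma adjusted p = 0.00332). Ctsa, which shields Neu1 and Glb1 from degradation, was 1.22-fold higher in irradiated Bub1KO than in irradiated VC cells (limma adjusted p = 0.00265) and overlaps exons of Neurl2 and Pltp on the other strand. Tpp1, a tripeptidyl peptidase, and Lgmn, an asparaginyl endopeptidase, rose 1.39-fold and 1.34-fold in Bub1KO and 1.54-fold and 1.44-fold in VC cells after irradiation, and neither passed between the genotypes. Ctsc, which activates granule proteases of immune cells, went the other way. It averaged 709 ± 16.6 in irradiated and 960.2 ± 124 in untreated Bub1KO libraries (log2 -0.43 ± 0.11, limma adjusted p = 0.00389). In VC it averaged 672 ± 87.1 with and 796 ± 32.3 without irradiation, and the change of -0.25 ± 0.11 missed the threshold (limma adjusted p = 0.0573).

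The glycan hydrolases mostly rose after irradiation. Of 10 tested, 6 were higher after irradiation in Bub1KO and 7 in VC, with 0 lower in either. Between the irradiated genotypes 2 (Naglu and Fuca1) were higher and 2 (Gusb and Ids) lower in Bub1KO. That was 20% in each direction, near the 14.3% and 16.4% of all genes, and the median was -0.10 on the log2 scale. Lyz2, a lysozyme abundant in macrophages, had 62.9, 54.6 and 69.3 normalised counts in irradiated Bub1KO libraries, against 64.0, 72.6 and 69.7 in irradiated VC libraries. Without irradiation it had 12.2, 8.23 and 9.48 in Bub1KO, against 4.14, 5.16 and 5.04 in VC libraries. The untreated genotypes did not overlap and the irradiated ones did. Like Ctsf, Lyz2 met the filter only through its irradiated libraries, which favoured a rise in advance. Lyz2 rose 5.81-fold in Bub1KO (log2 2.54 ± 0.21, limma adjusted p = 5.28e-07) and 12.1-fold in VC (3.60 ± 0.21, adjusted p = 2.87e-08). The difference between these rises was -1.06 ± 0.30 (limma adjusted p = 0.159). How the counting treated reads shared by Lyz2 and its near-identical copy Lyz1 is not stated.

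Gaa, the lysosomal alpha-glucosidase that degrades glycogen, averaged 5854 ± 217 in irradiated Bub1KO and 6566 ± 942 in irradiated VC libraries. It averaged 3662 ± 1475 in untreated Bub1KO and 2726 ± 344 in untreated VC libraries. It rose 1.71-fold in Bub1KO and 2.40-fold in VC cells (limma adjusted p = 0.0154 and 0.000567). Without replicate 1 of untreated Bub1KO, which held the low value, the rise in Bub1KO was 1.30-fold (log2 0.37, limma adjusted p = 0.00665). The difference between the rises of Gaa was then -0.89 and passed (limma adjusted p = 0.00109), while with that library it was -0.49 and did not (adjusted p = 0.605). Man2b1, a mannosidase, rose 1.94-fold in Bub1KO and 2.05-fold in VC, and averaged 4713 ± 177 in irradiated Bub1KO and 4726 ± 26.4 in irradiated VC libraries. The heparan sulfate enzymes differed from one another: Naglu rose in both genotypes and was 1.24-fold higher in irradiated Bub1KO than VC (limma adjusted p = 0.00434), while the irradiation effect on Sgsh was 0.29 ± 0.13 on the log2 scale in Bub1KO (adjusted p = 0.094) and 0.58 ± 0.13 in VC (adjusted p = 0.00251). Without replicate 1 of untreated Bub1KO the effect in Bub1KO was 0.09 for Sgsh (limma adjusted p = 0.396) and 0.38 for Naglu (adjusted p = 0.00107), against 0.68 for Naglu with it. The differences between the genotypes' responses were then -0.49 for Sgsh and -0.63 for Naglu and passed (limma adjusted p = 0.0153 and 0.00217), while with that library neither did (adjusted p = 0.572 and 0.641). Fuca1, a fucosidase, was higher in irradiated Bub1KO than VC by 0.26 ± 0.06 on the log2 scale (limma adjusted p = 0.00597). Idua, an iduronidase, rose by 0.35 ± 0.13 in Bub1KO and 0.49 ± 0.13 in VC cells on that scale, and its call in Bub1KO was lost under 6 of 15 other settings, among them without replicate 1 of untreated Bub1KO (0.29, limma adjusted p = 0.0702). Gusb, a beta-glucuronidase, was 0.893-fold and Ids, the iduronate sulfatase, 0.834-fold of VC in irradiated Bub1KO (limma adjusted p = 0.0378 and 0.049). Gusb did not pass under 8 and Ids under 7 of the other 16 settings. None of Gusb, Ids and Arsb, the arylsulfatase of dermatan sulfate, passed after irradiation in either genotype.

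The lipid hydrolases and their helper proteins included both genes that passed between the untreated genotypes. Of 11 tested, 9 were higher after irradiation in Bub1KO and 10 in VC, with 0 lower in either. In Bub1KO over VC 6 were higher with irradiation and 2 without it, with 0 lower. With replicate 1 of untreated Bub1KO left out, Grn, Npc2 and Psap passed between the untreated genotypes as well. Neu1, a sialidase, had 3297, 3409 and 2904 normalised counts in irradiated Bub1KO libraries, against 2471, 2445 and 2336 in irradiated VC libraries. In untreated cells it had 1359.9, 1734 and 1679.6 in Bub1KO, against 1092, 955 and 1061 in VC libraries. The genotypes did not overlap at either dose, and every irradiated library lay above every untreated one. Bub1KO exceeded VC 1.32-fold with irradiation (log2 0.40 ± 0.07, limma adjusted p = 0.000634) and 1.53-fold without it (0.61 ± 0.12, adjusted p = 0.0219), and the untreated call was lost under 7 of 16 other settings. Irradiation raised Neu1 2.02-fold in Bub1KO and 2.33-fold in VC (limma adjusted p = 1.74e-06 and 3.15e-07).

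Arsa, the sulfatase of myelin sulfatides, had 2739.6, 3069 and 2933 normalised counts in irradiated Bub1KO libraries, against 2851, 2993 and 2519 in irradiated VC libraries. Without irradiation it had 1632, 2164 and 2110.3 in Bub1KO, against 1382, 1327 and 1402 in VC libraries. The untreated genotypes did not overlap, while the irradiated ones did. The genotype difference was 1.05-fold with irradiation (log2 0.07 ± 0.07, limma adjusted p = 0.516) and 1.43-fold without it (0.51 ± 0.12, adjusted p = 0.0478), a call lost under 9 of 16 other settings. The test of the difference between the 2 gave -0.45 ± 0.14 (limma adjusted p = 0.22), and passed with the GC trend removed and without replicate 1 of untreated Bub1KO, where it was -0.58 (adjusted p = 0.0023). Arsa shares 690 bases of exon with the opposite-strand gene C230037L18Rik.

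Lipa, the acid lipase that splits cholesteryl esters, had 5455, 5442 and 5505 normalised counts in irradiated Bub1KO libraries, against 4241, 4139.99 and 4184 in irradiated VC libraries. In untreated cells it had 3850.1, 3103 and 3111 in Bub1KO, against 3285, 3484 and 3455 in VC libraries. The irradiated genotypes were far apart relative to their spread, and the untreated ones overlapped. The genotype difference after irradiation was 1.30-fold (log2 0.38 ± 0.05, limma adjusted p = 0.00013), and without it 0.98-fold (adjusted p = 0.918). The difference between the 2 was 0.41 ± 0.11 (limma adjusted p = 0.134) and passed under 4 of 21 other settings: DESeq2, removal of the GC trend with and without the replicate block, and without replicate 1 of untreated Bub1KO (0.52, adjusted p = 0.000538). Psap, the precursor of the saposins that present lipids to hydrolases, was 1.23-fold higher in irradiated Bub1KO than VC (limma adjusted p = 0.00223) and rose 1.60-fold in Bub1KO and 1.51-fold in VC cells. Grn, the progranulin precursor, Npc2, which hands cholesterol to the membrane, and Glb1, the beta-galactosidase, rose in both genotypes and were 1.13-fold, 1.16-fold and 1.17-fold higher in irradiated Bub1KO than VC (limma adjusted p = 0.03, 0.018 and 0.00863). Between the irradiated genotypes Grn did not pass under 8, Npc2 under 5 and Glb1 under 2 of the other 16 settings. Gla, an alpha-galactosidase, rose 1.61-fold in Bub1KO and 2.11-fold in VC, and Hexa, a hexosaminidase subunit, rose 1.24-fold and 1.23-fold, calls that removal of the GC trend ended in both genotypes. Asah1, the acid ceramidase, passed in VC at 1.29-fold, and Ppt1, a palmitoyl thioesterase, passed in no comparison.

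**Figure D4:**
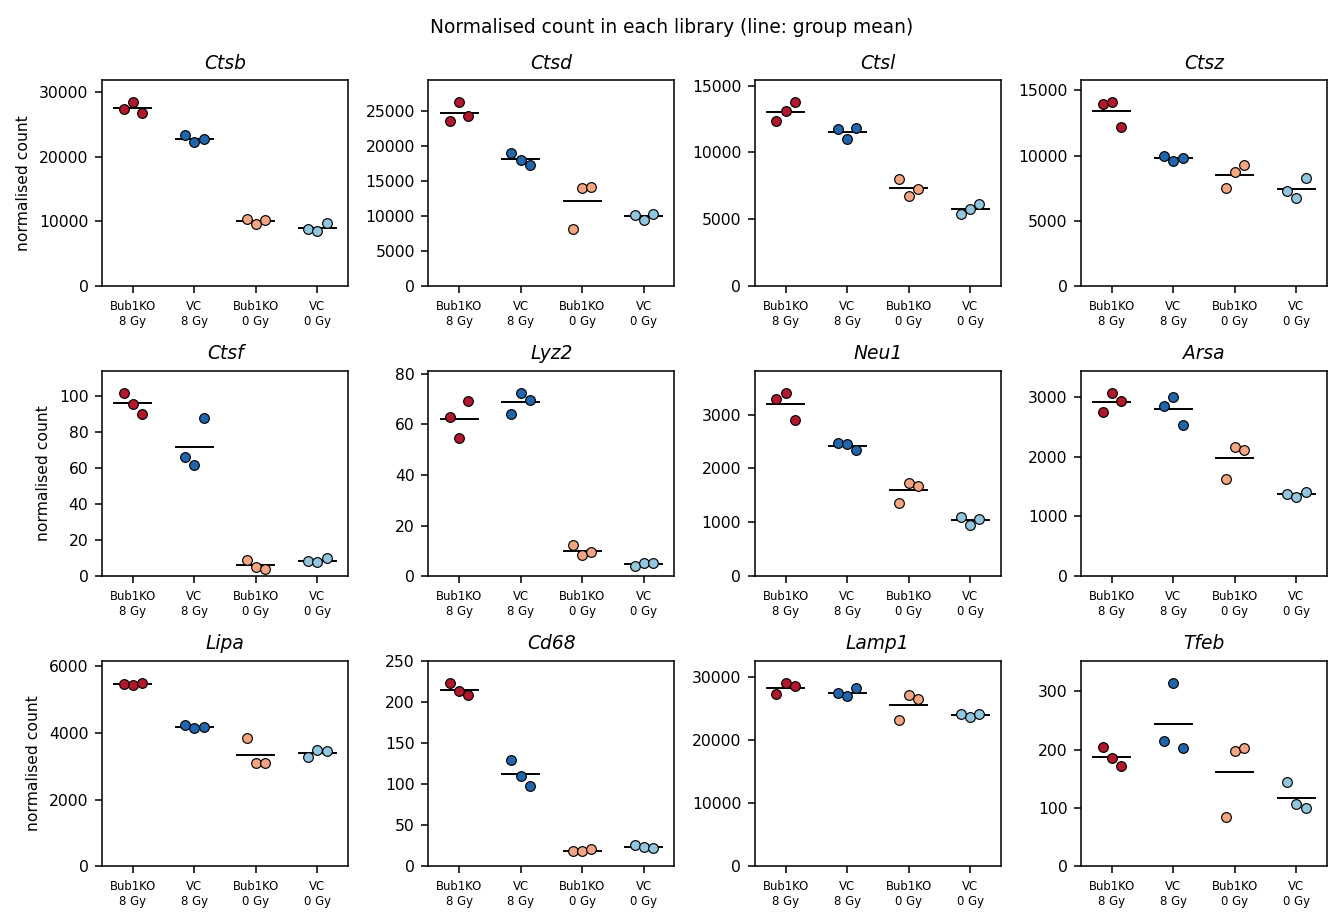
Normalised count (vertical axis, from 0) of 12 of the genes in each of the 12 libraries, by group, with the group mean as a line. Cd68, Ctsf and Lyz2 are near 0 in untreated libraries, and the irradiated Bub1KO and VC points of Lipa and Cd68 do not overlap.

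Among membrane proteins Cd68 changed most and Lamp1 and Lamp2 changed little. Of 9 tested, 6 were higher after irradiation in Bub1KO and 7 in VC, and 3 (Cd63, Cd68 and Mcoln1) were higher in irradiated Bub1KO than VC, with 0 lower in any of these. Without irradiation none passed between the genotypes. Cd68, a Lamp family glycoprotein best known from macrophages, had 224, 214 and 209 normalised counts in irradiated Bub1KO libraries, against 130.1, 109.8 and 98.7 in irradiated VC libraries. Without irradiation it had 18.3, 18.9 and 21.1 in Bub1KO, against 26.5, 23.2 and 22.7 in VC libraries. The genotypes separated at both doses, with Bub1KO above VC after irradiation and below it without. Irradiation raised Cd68 10.6-fold in Bub1KO (log2 3.41 ± 0.15, limma adjusted p = 1.9e-09) and 4.51-fold in VC (2.17 ± 0.15, adjusted p = 1.08e-07). The genotype difference was 1.92-fold after irradiation (0.94 ± 0.12, limma adjusted p = 0.000135) and 0.813-fold without it (-0.30 ± 0.22, adjusted p = 0.521).

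Cd68 was the one gene of the 43 that passed the test of the difference between the rises, at 1.24 ± 0.21 on the log2 scale (limma adjusted p = 0.0171). Of all genes, 0.136% passed that test upwards and 0.414% downwards. The median of the 43 in that test was -0.05, beside 0.00 over all genes. Without replicate 1 of untreated Bub1KO 3 of the 43 (Cd68, Ctsf and Lipa) passed it upwards and 5 (Arsa, Gaa, Naglu, Sgsh and Tfeb) downwards, while 2.3% of all genes passed upwards and 7.53% downwards. The call was lost when any irradiated Bub1KO library, replicate 2 or 3 of irradiated VC, or replicate 1 of untreated VC was left out, and the adjusted p ranged over 0.0036 to 0.0706 across 21 other settings. Cd68, Lyz2 and Ctss are also expressed by macrophages, and the 15 leukocyte and macrophage markers checked summed to 31.5 to 61.7 normalised counts in irradiated Bub1KO and 37.2 to 61.1 in irradiated VC libraries. They summed to 26.4 to 34.8 in untreated Bub1KO and 31.5 to 40.0 in untreated VC libraries. Adgre1, Tyrobp and Cd3e had 0 reads in all libraries, 2 of the 15 passed the filter, and no single marker exceeded 26.3 normalised counts. One of the 2, Laptm5, a lysosomal protein of blood cells, rose after irradiation in both genotypes: it averaged 10.9 in irradiated and 1.40 in untreated Bub1KO, and 8.86 in irradiated and 1.68 in untreated VC libraries (limma adjusted p = 0.00434 and 0.0235), with overlapping libraries in Bub1KO. Laptm5 met the filter only through irradiated libraries, which favoured a rise in advance, and its part in these results was not tested. The other of the 2, Fcer1g, passed after irradiation in neither genotype. Fcer1g averaged 18.8 in irradiated and 19.1 in untreated Bub1KO, and 16.5 in irradiated and 21.8 in untreated VC libraries. Cd68 alone had more counts than the 15 markers together in each irradiated library, and fewer in each untreated library. The source of the Cd68 reads was not tested.

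**Figure D5:**
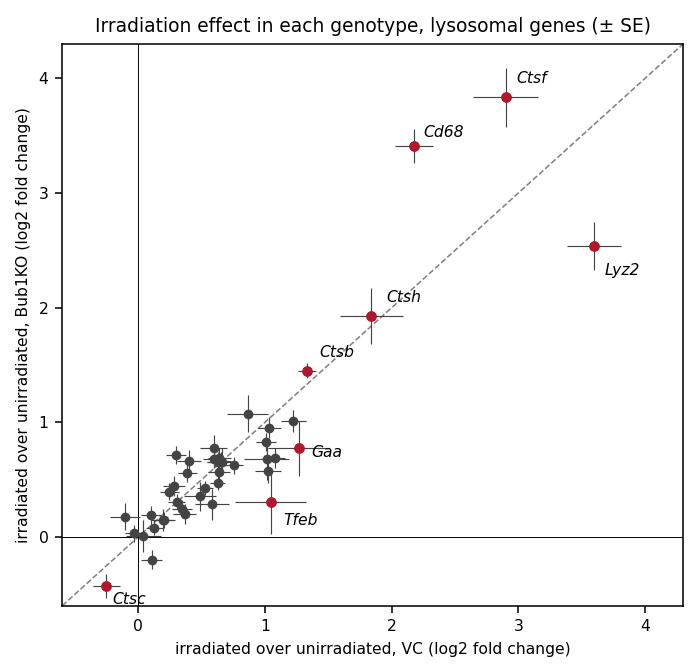
Irradiation effect (log2 fold change ± SE) in Bub1KO (vertical axis) against VC (horizontal axis) for the 43 genes, with the line of equal effect dashed. Cd68 lies above the line, at 3.41 against 2.17, and Lyz2 below it, at 2.54 against 3.60; most others lie near the line.

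Lamp1, in contrast, had 27282, 29016 and 28467 normalised counts in irradiated Bub1KO libraries, against 27385, 26879 and 28166 in irradiated VC libraries. In untreated cells it had 23063, 27045 and 26384 in Bub1KO, against 24037, 23547 and 24065 in VC libraries. The genotypes overlapped at both doses. Irradiated over untreated, Lamp1 was at 1.11-fold in Bub1KO (limma adjusted p = 0.0915), which did not pass, and at 1.15-fold in VC (adjusted p = 0.0268), which did. The call in VC was lost with no filter, and without replicate 1 or 2 of untreated VC or replicate 1 or 3 of irradiated VC. Lamp2, its close relative, differed by 0.15 ± 0.10 in Bub1KO and 0.20 ± 0.10 in VC on the log2 scale, and passed in neither. With the GC trend removed Lamp2 passed in both genotypes, and without replicate 2 of untreated VC it passed in VC.

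Cd63, a tetraspanin of late endosomes and melanosomes, averaged 25841 ± 1157 in irradiated Bub1KO and 20025 ± 802 in irradiated VC libraries (SD, n = 3 each), a 1.29-fold difference (limma adjusted p = 0.000483). Mcoln1, the calcium channel with 2 CLEAR half-sites, averaged 1402 ± 54.0 and 1094 ± 93.9 in these groups, a 1.28-fold difference (limma adjusted p = 0.00239). Laptm4a, a transmembrane protein, and Scarb2, the receptor that carries glucocerebrosidase to lysosomes, rose 1.54-fold and 1.57-fold in Bub1KO and 1.69-fold and 1.54-fold in VC, and were within 1.01-fold between the irradiated genotypes. Npc1, the cholesterol exporter, rose 1.36-fold in Bub1KO and 1.21-fold in VC. Cln3, the protein lost in juvenile Batten disease, passed in no comparison.

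The 2 transcription factors did not move together. Tfeb had 204, 186 and 172 normalised counts in irradiated Bub1KO libraries, against 215, 314 and 203 in irradiated VC libraries. Without irradiation it had 85.4, 198 and 203 in Bub1KO, against 144, 107 and 99.5 in VC libraries. The spread within groups was wide, and both pairs of genotypes overlapped. Irradiated over untreated, Tfeb was at 1.24-fold in Bub1KO (log2 0.31 ± 0.28, limma adjusted p = 0.383), which did not pass, and at 2.06-fold in VC (1.04 ± 0.28, adjusted p = 0.00616), which did. The difference between these values, -0.74 ± 0.39, did not pass (limma adjusted p = 0.484). Without replicate 1 of untreated Bub1KO the irradiation effect on Tfeb in Bub1KO was -0.10 on the log2 scale (limma adjusted p = 0.669), and the difference between the genotypes' responses was -1.15 and passed (adjusted p = 0.00752). In the same setting Tfeb was higher in untreated Bub1KO than VC by 0.79 on the log2 scale (limma adjusted p = 0.00945).

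Tfe3 had 1569, 1603 and 1421 normalised counts in irradiated Bub1KO libraries, against 1269, 1308 and 1159 in irradiated VC libraries. In untreated cells it had 1304, 1364 and 1351 in Bub1KO, against 1181, 1078 and 1227 in VC libraries. Bub1KO lay above VC in every library at each dose. The difference was 1.23-fold with irradiation (log2 0.30 ± 0.07, limma adjusted p = 0.00661) and 1.15-fold without it (0.21 ± 0.09, adjusted p = 0.258). The irradiation effect on Tfe3 was 0.19 ± 0.08 in Bub1KO and 0.10 ± 0.08 in VC, and neither passed.

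Genes with and without the promoter motifs rose after irradiation. Of the 14 genes with an E-box 11 rose after irradiation in Bub1KO and 13 in VC, with medians of 0.68 and 0.75 on the log2 scale. Of the 25 tested genes without one 17 rose in Bub1KO and 18 in VC, with medians of 0.47 and 0.49, and 1 fell in Bub1KO. Of all genes 25.4% rose and 23.9% fell in Bub1KO, and 27.6% rose and 25.8% fell in VC. After irradiation 6 of the 14 with an E-box were higher in Bub1KO than in VC, against 11 of the 25 without. In that comparison 0 of the 14 and 2 of the 25 were lower, while 14.3% of all genes were higher and 16.4% lower. For the CLEAR half-site the medians after irradiation in VC were 0.60 in the 11 genes with it and 0.61 in the 28 without. In Bub1KO these medians were 0.575 and 0.597. Whether the motifs bear on these changes was not tested.

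The low values of replicate 1 of untreated Bub1KO fell on particular genes. Relative to the mean of its replicates it held 0.425 of the level of Tfeb, 0.434 of Gaa, 0.543 of Naglu, 0.572 of Ctsd and 0.670 of Sgsh, whose exons have a GC content of 55.1% to 61.3%. Its highest ratios were 2.00 for Ctsf, 1.42 for Ctsh and 1.38 for Lyz2, which have few counts and a GC content of 55.1%, 50.5% and 48.3%, and then 1.24 for Lipa, Scarb2 and Ctsc, with 43.4% to 49.0%. Without that library Neu1 (log2 0.72) and Arsa (0.64) stayed higher in untreated Bub1KO than VC. Ctsa (0.37), Ctsd (0.51), Ctsl (0.29), Ctso (0.53), Ctsz (0.28) and Gaa (0.73) became higher as well. So did Grn (0.34), Naglu (0.94), Npc2 (0.28), Psap (0.31), Sgsh (0.30) and Tfeb (0.79). The limma adjusted p of these genes ranged over 4.91e-05 (Naglu) to 0.0478 (Ctsz), and 10.2% of all genes were higher in that setting. With that library kept and the GC trend removed, 12 genes were higher, among them Asah1, Ctsc and Gla in addition. Of all 14721 genes 914 were then higher and 875 lower, against 340 and 251 before that removal.

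Other parts of the lysosomal system were described by lists of genes, whose counts stand beside those over all 14721 genes. Of all genes 25.4% were higher and 23.9% lower after irradiation in Bub1KO, and 27.6% and 25.8% in VC. Between the genotypes these shares were 14.3% and 16.4% with irradiation and 2.31% and 1.71% without it. Of 28 further hydrolases and activators tested, 13 were higher, 2 lower and 13 did not pass after irradiation in Bub1KO, and 16, 2 and 10 in VC. In irradiated Bub1KO over VC 9 were higher, 1 lower and 18 did not pass, and between the untreated ones 2, 0 and 26. Gpnmb, a glycoprotein of melanosomes and lysosomes, rose 2.23-fold in Bub1KO and 2.67-fold in VC cells, and the sphingomyelinase Smpd1 rose 1.64-fold and 2.28-fold. The peptidase Cpq was 1.77-fold higher in irradiated Bub1KO than VC (limma adjusted p = 0.000625) and 1.70-fold higher without irradiation (adjusted p = 0.028).

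Of 18 subunits of the vacuolar ATPase, the proton pump, 7 were higher, 1 lower and 10 did not pass after irradiation in Bub1KO, and 11, 0 and 7 in VC. Between the irradiated genotypes 2 were higher, 4 lower and 12 did not pass, and between the untreated ones 2, 0 and 16. The shares between the irradiated genotypes were 11.1% higher and 22.2% lower, near those over all genes. Atp6v0c, a subunit of the membrane ring, had 3461, 3632 and 3425 normalised counts in irradiated Bub1KO libraries, against 5889, 7702 and 5848 in irradiated VC libraries. That difference was 0.546-fold (limma adjusted p = 1.78e-05), and the gene rose 2.56-fold in VC (adjusted p = 0.00244). Atp6v1d was 1.27-fold higher in irradiated Bub1KO, while Atp6v0a1 and Atp6v1b2 rose 1.32-fold and 1.33-fold in Bub1KO and 1.76-fold and 1.53-fold in VC after irradiation.

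Of 23 other membrane transporters and channels 13 were higher, 0 lower and 10 did not pass after irradiation in Bub1KO, and 14, 1 and 8 in VC. In irradiated Bub1KO over VC 6 were higher, 4 lower and 13 did not pass, and between the untreated ones 0, 1 and 22. Abcd4, a cobalamin transporter, was 1.43-fold and Abca2 0.773-fold of VC in irradiated Bub1KO, while Hgsnat and Tmem192 rose 1.57-fold and 1.40-fold in VC after irradiation. The 14 sorting and maturation genes of the mannose 6-phosphate route were split, with 4 higher, 5 lower and 5 not passing after irradiation in Bub1KO and 3, 4 and 7 in VC. Between the irradiated genotypes 2 were higher, 4 lower and 8 did not pass, and between the untreated ones 0, 1 and 13. The sorting receptor Sort1 was 1.31-fold higher and the uncovering enzyme Nagpa 0.744-fold in irradiated Bub1KO over VC, and the adaptor Gga2 fell to 0.766-fold in VC after irradiation.

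Of 24 tethering and positioning genes 11 were higher, 2 lower and 11 did not pass after irradiation in each genotype. In irradiated Bub1KO over VC 6 were higher, 2 lower and 16 did not pass, and 0 of the 24 passed in limma between the untreated ones, with 7 higher and 0 lower at an unadjusted p under 0.05, beside 9.71% and 9.43% of all genes. The fusion proteins Stx8 and Vamp8 were both 1.38-fold higher in irradiated Bub1KO than VC, and Stx7 and Arl8a rose 1.85-fold and 1.70-fold in VC. Of 21 autophagy genes 14 were higher, 2 lower and 5 did not pass after irradiation in Bub1KO, and 15, 2 and 4 in VC. Between the irradiated genotypes 5 were higher, 2 lower and 14 did not pass, and between the untreated ones 1, 0 and 20. Gabarap and Gabarapl1, which join autophagosome membranes, were 1.31-fold and 1.30-fold higher in irradiated Bub1KO, and the receptors Optn and Calcoco1 rose 2.17-fold and 3.08-fold in VC.

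The 19 tested genes of nutrient control and the remaining members of the factor family mostly did not pass, with 1 higher, 6 lower and 12 not passing after irradiation in Bub1KO and 1, 4 and 14 in VC. In irradiated Bub1KO over VC 2 were higher, 2 lower and 15 did not pass, and between the untreated ones 0, 1 and 18. The shares between the irradiated genotypes, 10.5% in each direction, were under those over all genes. Rragb, a Rag GTPase, was 0.557-fold of VC in irradiated Bub1KO, and Lamtor1, a lysosomal anchor of that complex, was 1.23-fold higher. Mlst8 and Lamtor5 fell to 0.736-fold and 0.707-fold in VC after irradiation. Of 3 tested cathepsin inhibitors Cst6 rose 2.76-fold in Bub1KO and 2.62-fold in VC, and the change of Cstb did not pass in Bub1KO (limma adjusted p = 0.0773) and was a 1.89-fold rise in VC. Cstb, which blocks cysteine cathepsins in the cytosol, was 0.834-fold of VC in irradiated Bub1KO (limma adjusted p = 0.0168), and 0 of the 3 passed between the untreated genotypes in limma, with 1 at an unadjusted p under 0.05. Of the 150 genes tested in these 8 lists 0 passed limma's test of the difference between the genotypes' responses to irradiation, with 4 upwards and 13 downwards at an unadjusted p under 0.05, beside 5.79% and 6.33% of all genes.

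Markers of other cell types moved with irradiation too, and their part in these results was not tested. The 12 fibroblast and endothelial markers summed to 2068 to 2428 in irradiated Bub1KO and 1967 to 2027 in irradiated VC libraries, against 712 to 879 in untreated Bub1KO and 583 to 649 in untreated VC libraries. Postn made up most of these sums, 4 of the 12 passed the filter, of which 3 rose and 1 fell after irradiation in each genotype, and the endothelial genes Cdh5 and Kdr stayed at or under 1.07 normalised counts. Pdgfra, the one that fell, averaged 38.5 in irradiated and 84.8 in untreated Bub1KO, and 42.1 in irradiated and 115.7 in untreated VC libraries. Col1a1, among those that rose, averaged 6.26 in untreated Bub1KO and 6.05 in untreated VC libraries, so it met the filter through irradiated libraries. The 6 keratinocyte and epithelial markers summed to 122 to 133 in irradiated Bub1KO, 77.2 to 102 in irradiated VC, 74.8 to 96.6 in untreated Bub1KO and 57.2 to 78.7 in untreated VC libraries, nearly all from Cdh1.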

How the data were processed

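Total RNA taken with TRIzol was made into libraries with a stranded kit after ribosomal RNA removal, per the labels' protocols. Trim Galore, cutadapt, STAR, SAMtools, HTSeq and the build GRCm38.p6 (mm10) are named in the submitters' processing notes, without versions. The annotation release and the strand setting of the counting are not stated there. The authors deposited 2 tables whose sample columns hold a signal, the read count of a gene divided by 1 size factor per library, with whole reads recovered for 100% of values (tolerance 0.01). The deposited tables also hold a log2 fold change (VC over Bub1KO), a test score and p-values by the authors. No column of per-sample values was without a sample.

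Genes with at least 10 normalised counts in at least 3 of the 12 libraries were tested with limma 3.58.1 (trend, R 4.3.3) on log2(value + 1), with Benjamini-Hochberg adjustment over all 14721 genes. Each genotype comparison used its own 6 libraries. The irradiation effects and the difference between them used all 12, because the shared spread serves contrasts across the 4 groups. Alternatives were other pseudocounts, no filter, all 12 libraries in the fit, TMM factors, edgeR 4.0.16 and DESeq2 1.42.0 on the recovered reads, a replicate block, removal of the GC trend, and leaving out each library. The pipeline was tested on simulated data.

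Exon lengths, GC content (of 14707 tested genes) and overlaps came from GENCODE M21, and promoters from RefSeq GRCm38.p6. The genes, the lists and the tests were chosen with earlier results of these data known. Values in every library were given for the 4 genes with the smallest p in each comparison and for Tfeb, Tfe3, Lamp1 and Ctsd, and for each other list up to 2 genes by p in irradiated Bub1KO over VC and in irradiation of VC. One gene so named is not reported here. Of the 6 promoters that the rule allowed, Cd68 and Ctsd were printed. The labels give no batch. Floors of 3 reads cover counting error only.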

Additional observations from a re-analysis of the deposited data

Results flagged for a closer look

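Cd68 differed between the genotypes in its response to irradiation. The Bub1KO minus VC difference after irradiation, less the same difference without it, was 1.24 on the log2 scale (SE 0.21, limma adjusted p = 0.0171). All 3 irradiated Bub1KO libraries lay above all 3 irradiated VC libraries, and all 3 untreated Bub1KO libraries lay below all 3 untreated VC libraries. The value ranged over 1.15 to 1.34 across the other settings tried, and 6 of the 21 did not pass, each of them with 1 library left out. The cause of the difference was not tested.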

How the results depend on the processing

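The counts of genes higher after irradiation stayed within 1.5 times of 31 (Bub1KO) and 35 (VC) under every setting tried, and 29 and 30 of the called genes passed under all 15 alternatives. Between the irradiated genotypes, 6 genes (Cd63, Cd68, Ctsb, Ctsz, Lipa and Neu1) passed under all 16 alternatives. The 18 higher there became 8 with no filter, which tests 30265 genes, and 11 with all 12 libraries in the fit, with 15 to 18 when a library was left out. Of all genes 1109 were higher with no filter and 1085 with all 12 libraries in the fit, against 2104 in the main test. The 2 lower became 0 with no filter and with all 12 libraries in the fit, 1 with TMM factors, with edgeR and under the replicate block, and 0 to 3 when a library was left out. Between the untreated genotypes the 2 higher became 0 with no filter, 8 with all 12 libraries in the fit, and 1 with TMM factors and with edgeR. They became 0 under the replicate block, 12 with the GC trend removed, and 7 with the replicate block and the GC trend removed. When a library was left out they became 0 to 14. Beside the 8, 12 and 7, the genes higher among all 14721 were 977, 914 and 701, against 340 in the main test. After irradiation the 1 lower in Bub1KO became 1 to 2 when a library was left out, and the 0 lower in VC became 1 with TMM factors and with edgeR and 0 to 1 when a library was left out. In the test of the difference between the rises, the 1 higher became 2 with DESeq2, 2 with the GC trend removed, and 2 with the replicate block and the GC trend removed. It became 0 to 3 when a library was left out. The 0 lower became 3 with the GC trend removed and 0 to 5 when a library was left out. With the GC trend removed 128 of all genes passed that test upwards and 300 downwards, against 20 and 61 in the main test. The cause of these shifts was not tested. Of 3569 values of single genes under alternatives, 3383 kept their side of the threshold, 94 lost it, 78 gained it, 14 moved without a call and 0 reversed. Replicate numbers did not pair the libraries: deviations of same-numbered libraries correlated at -0.19 to 0.20 over 18 pairs, and 2 of 12 libraries correlated best with their own number.

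With 3 libraries a group, some differences of over 3 SE missed the threshold, that of Gla between the untreated genotypes among them. Tfeb, Ctsf, Ctsh and Gaa had the widest errors in the irradiation effects, and Ctsf and Lyz2 between the genotypes. Reads of genes that overlap another gene's exons, and of Lyz2 and its near copy, cannot be told apart. The library that stood apart in untreated Bub1KO enters the untreated comparison, the Bub1KO irradiation effect and the difference between the rises.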
